A study of Mus musculus with 8 samples.

Results

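The genes that mark position along the gut were examined in sorted mouse Paneth cells, the antimicrobial secretory cells of the crypts of the small intestine. The set held 9 genes, namely Gata4, Gata6, Onecut2, Pdx1, Osr2, Fabp6, Slc10a2, Cdx1 and Cdx2, and was chosen by name from among 55414 gene IDs in the count table. All 9 had counts in at least 6 of the 8 libraries, and 7 were expressed enough to be tested for an effect of zinc. The mice were C57BL/6J and of a single genotype. The water group (4 libraries) came from mice kept on Milli-Q (ultrapure) water and the zinc group (4 libraries) from mice given water with 25 mM ZnSO4, each for 7 days. The labels number the replicates without naming mice, while the study's methods describe sorts from single mice, so p-values measure the spread between these libraries. Age and sex of the mice were not given in the labels. The labels give the tissue as small intestine and name no segment, so the contribution of duodenal, jejunal and ileal Paneth cells to each library is not known. In such bulk samples, fewer cells of a type and less RNA per cell cannot be told apart.

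The intestinal epithelium keeps a positional identity that is set by transcription factors. The caudal-type homeobox factors CDX1 and CDX2 are active along the whole intestine, and CDX2 is required for intestinal rather than gastric identity. The zinc finger factor GATA4 is present in the duodenum and jejunum and is lost towards the distal ileum, where genes of bile acid recovery such as Slc10a2 and Fabp6 are active, while GATA6 is found along the whole length. PDX1 is best known from the pancreas and duodenum.

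Library totals ran from 20760764 to 24117111 counts. Values are given as CPM, counts normalised to library size with TMM factors, which adjust the library totals for a few very abundant transcripts. The TMM factors ran from 0.764 in water replicate 1 to 1.23 in zinc replicate 4, and replicate 1 had the lowest factor of its group with both treatments. The share of counts from Defa (α-defensin) genes was highest in these 2 libraries, at 39.9% with water and 38.5% with zinc, so that values between libraries depend on this scaling. A count of 0, read as up to 3 counts, allowed 0.115 to 0.188 CPM, a limit that covers counting error only. The 5 Paneth cell markers (Lyz1, Defa24, Itln1, Mmp7 and Ang4) took 36.7 to 47.3% of counts in all 8 libraries. The 5 enterocyte markers took 0.0451 to 0.0724% and the 5 goblet cell markers 0.864 to 1.41%. Stem cell markers took 0.318 to 0.676%, and the markers of enteroendocrine cells, tuft cells, Brunner glands and leukocytes at most 0.0110% each. Col1a1, Dcn, Pdgfra and Acta2, which mark mesenchyme, and Cela2a, Prss2 and Ins2, which mark the pancreas, had 0 counts in all 8 libraries. No marker list passed an exact two-sided permutation test of its share between zinc and water (smallest adjusted p = 0.857 over 10 lists). With 4 libraries against 4, the smallest p this permutation test can give is 0.0286 before adjustment. A list that differed alone could therefore not have passed, and the test does not show that the shares were equal.

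To compare the genes with each other, CPM was divided by the merged exon length. The order of mean CPM per kilobase was Cdx1, Cdx2, Gata4, Gata6, Osr2, Pdx1, Fabp6, Onecut2 and Slc10a2. Cdx1 stood at 59.8 ± 6.22 and Cdx2 at 27.2 ± 3.57 CPM per kilobase (SD, n = 8), and the lowest Cdx1 library was above the highest Cdx2 library. Cdx2 in turn did not overlap with Gata4, which stood at 7.58 ± 1.81 CPM per kilobase (SD, n = 8). Gata4 and Gata6 (5.44 ± 0.496 CPM per kilobase) overlapped, and their order turned with the longest transcript as the length, which raised Gata6 to 9.82. Osr2 followed at 2.27 ± 0.631, below every Gata6 library. The ranges of Osr2 and Pdx1 (1.42 ± 0.727), of Pdx1 and Fabp6 (0.832 ± 1.21) and of Fabp6 and Onecut2 (0.777 ± 0.362 CPM per kilobase) overlapped. Fabp6 was above Onecut2 in 2 of the 8 libraries, and without water replicate 4 the mean of Fabp6 fell to 0.430 CPM per kilobase, below the 0.805 of Onecut2. Slc10a2 was last, at 0.0253 ± 0.0243 CPM per kilobase, below every Onecut2 library.

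**Figure D1:**
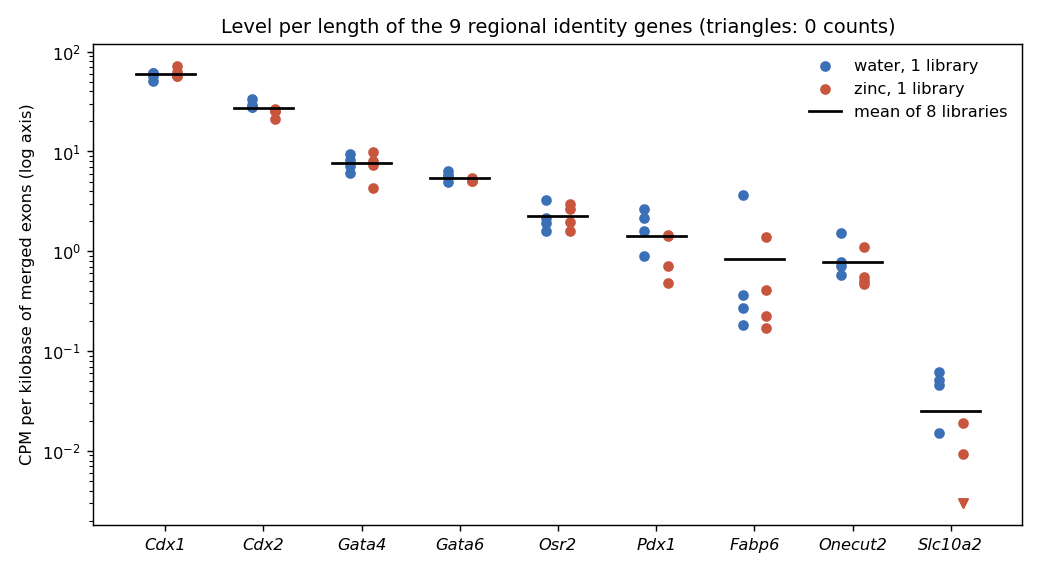
Level of each gene in CPM per kilobase of merged exons on a log axis, with 1 point per library (blue for water, red for zinc) and a line at the mean of the 8 libraries. Triangles stand for 0 counts, and their height has no meaning. Cdx1 and Cdx2 lie above all other genes, and the points of Fabp6 spread most, from 0.169 to 3.65.

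The genes also differed in how much they varied between mice. Gata6 was the steadiest, with a coefficient of variation of 9.12% over the 8 libraries, followed by Cdx1 (10.4%) and Cdx2 (13.1%). The coefficient was 23.9% for Gata4, 27.8% for Osr2, 46.6% for Onecut2 and 51.2% for Pdx1. It was 95.8% for Slc10a2 and 145% for Fabp6, where most libraries held few counts. With library totals as the only scaling, the coefficient was 18.6% for Gata6, 23.8% for Cdx1, 26.0% for Cdx2 and 24.5% for Gata4. The CDX genes were then close to Gata4, with Cdx1 slightly below it and Cdx2 above it.

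Fabp6 encodes the ileal bile acid binding protein, and Slc10a2 the apical sodium-dependent bile acid transporter, which takes up bile acids in the ileum. Their promoters are shown because these 2 genes carry the distal end of the set, and that of Pdx1 because it carries the proximal end. The RefSeq promoter table (GRCm38.p6) held 4 of the 9 genes, namely Fabp6, Slc10a2, Pdx1 and Cdx2. Each sequence was matched to 1 place in GRCm39, and is given here 5′ to 3′ on the strand of the gene, ending at the base before the GENCODE start. Fabp6 lies on the minus strand at chr11:43492470-43492639, Slc10a2 on the minus strand at chr8:5155352-5155537 and Pdx1 on the plus strand at chr5:147206657-147206768. Capitals mark matches to CATAAA, the core letters bound by CDX factors, on either strand (TTTATG on the other).
Fabp6: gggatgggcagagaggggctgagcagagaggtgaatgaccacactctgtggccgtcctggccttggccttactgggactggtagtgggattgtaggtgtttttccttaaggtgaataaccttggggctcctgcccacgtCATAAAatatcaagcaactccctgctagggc
Slc10a2: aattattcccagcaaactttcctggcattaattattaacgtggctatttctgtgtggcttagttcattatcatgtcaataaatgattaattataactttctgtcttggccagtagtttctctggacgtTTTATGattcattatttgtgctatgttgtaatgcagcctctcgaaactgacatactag
Pdx1: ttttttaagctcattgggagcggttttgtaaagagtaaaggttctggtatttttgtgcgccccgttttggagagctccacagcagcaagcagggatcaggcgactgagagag

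Fabp6 and Slc10a2 each held 1 match to the CDX letters, which began 31 bases before the GENCODE start in Fabp6 and 58 bases before it in Slc10a2. Pdx1 and Cdx2 held none in the 250 bases before their RefSeq start. The letters AGATAA, bound by GATA factors, or TTATCT on the other strand, were in none of the 4 windows. Among all 32851 windows of 250 bases in the table, 10.8% held the CDX letters and 9.99% the GATA letters, and both sets of letters contain ATAA. A match is a description of these letters and does not show that a factor is bound. The sequence of Slc10a2 was also poorer in G and C, at 34.4%, than that of Fabp6 (54.7%) or Pdx1 (48.2%).

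Among the proximal factors, Gata4 (ENSMUSG00000021944, GRCm39 chromosome 14, 63436362 to 63509141, minus strand, 13 merged exons) stood at 46.7, 41.1, 54.1 and 34.8 CPM in water replicates 1 to 4. In zinc replicates 1 to 4 it stood at 45.55, 41.7, 56.8 and 24.55 CPM. The groups overlapped widely, and replicate 3 was highest and replicate 4 lowest with both treatments. With library totals as the only scaling, the lowest water library was replicate 1, at 35.6 CPM against 42.3 CPM in replicate 4. Mean Gata4 was 44.2 ± 8.18 CPM in the water group and 42.2 ± 13.4 CPM in the zinc group (SD, n = 4). On the log2 scale the zinc group differed from the water group by -0.07 (SE 0.23), with an adjusted p of 0.998 in edgeR.

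Onecut2 encodes a homeobox factor of the ONECUT family with proximal expression in the gut. The gene (ENSMUSG00000045991, chromosome 18, 64473091 to 64534058, plus strand, 2 merged exons) stood at 11.45, 12.6, 24.8 and 9.43 CPM in water replicates 1 to 4 and at 9.03, 8.26, 17.8 and 7.60 CPM in zinc replicates 1 to 4. Replicate 3 was again the highest and replicate 4 the lowest in each group. Replicate 1 was instead the lowest of each group, at 8.74 and 6.99 CPM, with library totals as the only scaling. The difference on the log2 scale, zinc against water, was -0.45 (SE 0.38), with an adjusted p of 0.998 in edgeR. It was -0.06 without water replicate 3 and -0.82 without zinc replicate 3.

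Pdx1 (ENSMUSG00000029644, chromosome 5, 147206769 to 147212658, plus strand, 2 merged exons) was much less abundant, at 4.69, 1.93, 5.67 and 3.44 CPM in water replicates 1 to 4. In zinc replicates 1 to 4 it stood at 3.09, 1.54, 3.12 and 1.05 CPM. Replicate 3 was the highest of each group, and 3 of the 4 water libraries were above all zinc libraries. Mean Pdx1 was 3.93 ± 1.62 CPM in the water group and 2.20 ± 1.06 CPM in the zinc group (SD, n = 4). Its log2 fold change of -0.84 (SE 0.38) had an unadjusted edgeR p of 0.0437 and did not pass the threshold (adjusted p = 0.998). The antisense gene Plut overlaps Pdx1 and had 62 counts in all, against 534 for Pdx1, and whether strand was used in counting is not known.

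Gata6, found along the whole intestine and needed in its crypts, was level across the libraries. The gene (ENSMUSG00000005836, chromosome 18, 11051565 to 11086995, plus strand, 10 merged exons) ran from 45.7 to 59.2 CPM with water and from 46.7 to 50.45 CPM with zinc. Unlike that of Gata4, its level in the zinc group had an SD of 1.75 CPM, against 5.67 CPM in the water group. The difference on the log2 scale, zinc against water, was -0.13 (SE 0.11), with an adjusted p of 0.998 in edgeR. The overlapping antisense gene Gata6os had 903 counts, against 8894 for Gata6. Within a library the ratio of Gata4 to Gata6 per kilobase does not depend on scaling, and it ran from 0.851 in zinc replicate 4 to 1.97 in zinc replicate 3.

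Osr2 encodes a zinc finger factor of the odd-skipped family (ENSMUSG00000022330, chromosome 15, 35296196 to 35303673, plus strand, 2 merged exons). Osr2 stood at 10.8, 14.5, 12.9 and 22.00 CPM in water replicates 1 to 4 and at 13.4, 18.0, 10.8 and 20.25 CPM in zinc replicates 1 to 4. Replicate 4 was the highest of each group, and the groups overlapped. The difference on the log2 scale, zinc against water, was 0.05 (SE 0.23), with an adjusted p of 0.998 in edgeR.

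Fabp6 (ENSMUSG00000020405, chromosome 11, 43486872 to 43492469, minus strand, 4 merged exons) had 3, 6, 3 and 67 counts in water replicates 1 to 4. In zinc replicates 1 to 4 it had 2, 6, 4 and 25 counts. Most of its counts were in replicate 4 of each group, at 2.56 CPM in the water library and 0.970 CPM in the zinc library, against 0.119 to 0.290 CPM in the other 6 libraries. The exact Poisson 95% intervals of the counts in these 2 libraries, 51.9 to 85.1 with water and 16.2 to 36.9 with zinc, lay above those of the other 6 libraries, of which the highest ended at 13.1. Fabp6 did not pass the low-count filter. Fitted without that filter, Fabp6 differed by -1.01 on the log2 scale (SE 0.66), with an adjusted p of 0.765 in edgeR.

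Markers of other cells were measured in the same libraries. The enterocyte list, Alpi, Vil1, Fabp2, Sis and Anpep, took 0.0624% of counts in water replicate 4, inside the range of the other water libraries, and 0.0724% in zinc replicate 4, against 0.0451 to 0.0671% in the other zinc libraries. Alpi, which marks mature enterocytes, had 13 counts in water replicate 4, the most of the water group, and 0 in zinc replicate 4. The goblet cell list, Muc2, Clca1, Fcgbp, Spink4 and Tff3, took 1.07 and 1.41% in replicate 4 of the water and zinc groups, the highest share of each group. On the TMM scale these lists were not highest there. Single markers went both ways, and those given here were named after their values were seen. Clca1 stood at 238 and 124 CPM in these 2 libraries, against 5.52 to 24.3 CPM in the other 6, and Fcgbp and Fabp2 were also highest there. Spink4 was lowest of each group there, at 4750 and 5824 CPM, as was Anpep, at 204.5 and 232 CPM. The part of these cells in the Fabp6 and Osr2 levels was not tested.

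Slc10a2 (ENSMUSG00000023073, chromosome 8, 5133219 to 5155351, minus strand, 6 merged exons) was close to the detection limit. It had 1, 6, 5 and 5 counts in water replicates 1 to 4 and 0, 0, 2 and 1 counts in zinc replicates 1 to 4. No library was above 0.258 CPM, and the groups overlapped. Water replicate 4, with the most Fabp6, had no more Slc10a2 than water replicates 2 and 3. The gene was not tested after the low-count filter, and fitted without it the difference was -2.33 on the log2 scale (SE 1.51), with an adjusted p of 0.765 in edgeR, a value that rests on 17 counts with water and 3 with zinc.

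The CDX genes were the most abundant of the set. Cdx1 (ENSMUSG00000024619, chromosome 18, 61151934 to 61169314, minus strand, 5 merged exons) stood at 120.1, 113, 99.8 and 121 CPM in water replicates 1 to 4 and at 114, 124, 113.5 and 143 CPM in zinc replicates 1 to 4. The groups overlapped, with the highest library in the zinc group. The difference on the log2 scale, zinc against water, was 0.12 (SE 0.11), with an adjusted p of 0.998 in edgeR.

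Cdx2 (ENSMUSG00000029646, chromosome 5, 147237615 to 147244091, minus strand, 3 merged exons) lies 24956 bases from Pdx1 in the ParaHox cluster. It stood at 66.55, 63.2, 63.4 and 76.8 CPM in water replicates 1 to 4 and at 48.6, 57.4, 58.3 and 60.6 CPM in zinc replicates 1 to 4. All water libraries were above all zinc libraries on this scale. Mean Cdx2 was 67.5 ± 6.39 CPM in the water group and 56.2 ± 5.28 CPM in the zinc group (SD, n = 4). The log2 fold change was -0.26 (SE 0.11), with an unadjusted edgeR p of 0.0316 and an adjusted p of 0.998. With library totals as the only scaling the Cdx2 groups overlapped, as the water libraries then ran from 50.8 to 93.2 CPM and the zinc libraries from 37.6 to 74.3 CPM. Within a library, Cdx1 exceeded Cdx2 per kilobase by 1.80 to 2.07 times with water and by 2.23 to 2.703 times with zinc, a ratio that no scaling changes and that was not tested.

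**Figure D2:**
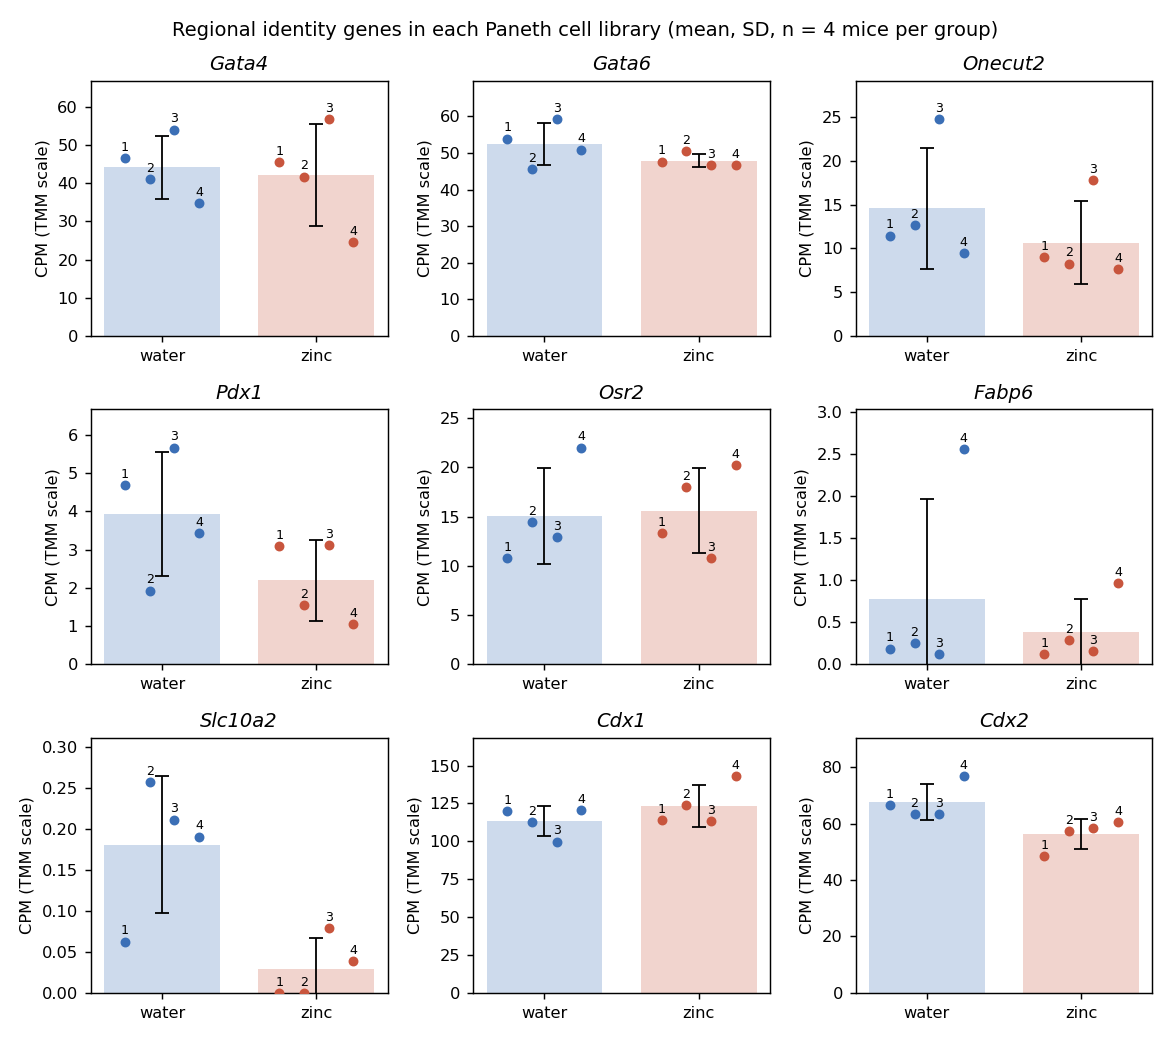
CPM of the 9 genes in each library, with the replicate number above each point. Bars stand at the group mean, with error bars of 1 SD (n = 4 libraries per group). Each axis starts at 0 and has its own range. On this TMM scale replicate 4 holds the highest Osr2 and Fabp6 values and the lowest Gata4 and Onecut2 values in each group.

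Zinc was compared with water to ask whether the treatment altered the positional genes. By edgeR's quasi-likelihood test, 0 of the 7 genes had an adjusted p below 0.05 in either direction, as had 0.0834% of the 11988 genes entered. Limma-voom and DESeq2 also called 0 of the 7. In the edgeR test 2 of the 7, Cdx2 and Pdx1, had an unadjusted p below 0.05, as did 4.65% of all genes tested. The groups did not overlap in 1 of the 7, Cdx2, against 2.84% of all genes tested. The median log2 fold change of the 7 was -0.13, with 2 above and 5 below 0, and that of all genes tested was 0.01.

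The precision differed between the genes. With approximate 95% intervals from the SE, the log2 fold change lay between -0.34 and 0.08 for Gata6 and between -0.10 and 0.35 for Cdx1. It lay between -0.51 and 0.37 for Gata4 and between -0.41 and 0.50 for Osr2. For Onecut2 the interval was -1.19 to 0.29. For Pdx1 it was -1.59 to -0.09 and for Cdx2 -0.48 to -0.04, before adjustment. Without zinc replicate 4 the Gata4 value changed sign to 0.12, as it did without water replicate 3 (0.04). Osr2 turned negative without any of water replicate 1, water replicate 3, zinc replicate 2 or zinc replicate 4, at -0.08, -0.03, -0.03 and -0.11.

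**Figure D3:**
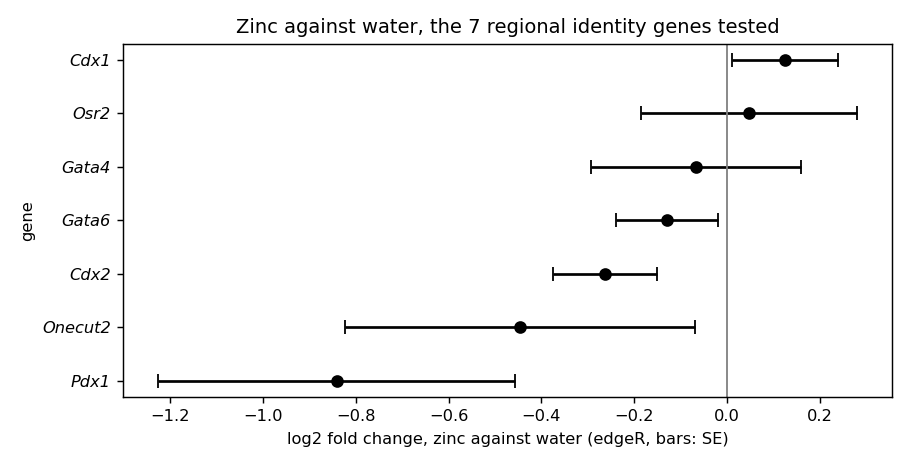
Log2 fold change of the 7 tested genes, zinc against water, as points with bars of 1 SE on either side (edgeR, 4 libraries per group). Pdx1 at -0.84 and Onecut2 at -0.45 have the widest bars, and Cdx1 and Gata6 among the narrowest.

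The variation between libraries was then compared between genes. Pearson's r and Spearman's rho of log2 CPM were computed over the 8 libraries for 8 pairs, with exact two-sided permutation p-values and Benjamini-Hochberg adjustment over the pairs. The test treats the 8 libraries as independent, although the TMM factors rose with the replicate number in both groups. If libraries of the same number share an origin, which the labels do not say, these p-values are too small. Osr2 was low where Gata4 was high, with r = -0.82 (exact permutation p = 0.00682, adjusted 0.0462) and rho = -0.93 (exact permutation p = 0.00223, adjusted 0.0179). Cdx1 also ran against Gata4, with r = -0.85 (exact permutation p = 0.0116, adjusted 0.0462), while its rho of -0.64 did not pass (exact permutation p = 0.0962, adjusted 0.184). Onecut2 and Pdx1 ran with Gata4 without passing the threshold, with r = 0.74 (exact permutation p = 0.0368, adjusted 0.0611) and rho = 0.71 (exact permutation p = 0.0576, adjusted 0.154) for Onecut2. For Pdx1, r was 0.73 (exact permutation p = 0.0382, adjusted 0.0611) and rho 0.62 (exact permutation p = 0.115, adjusted 0.184), and r was 0.43 without zinc replicate 4.

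Gata6 was only loosely related to Gata4, with r = 0.37 (exact permutation p = 0.361, adjusted 0.481) and rho = 0.40 (exact permutation p = 0.327, adjusted 0.436). For Cdx2 and Gata4, r was -0.22 (exact permutation p = 0.586, adjusted 0.669) and rho -0.14 (exact permutation p = 0.752, adjusted 0.840). For Cdx1 and Cdx2, r was 0.05 (exact permutation p = 0.905, adjusted 0.905) and rho -0.10 (exact permutation p = 0.840, adjusted 0.840). That pair moved most with the setting, as r was 0.80 with library totals as the only scaling (exact permutation p = 0.0201, adjusted 0.0806) and 0.63 after subtraction of the group means (exact permutation p = 0.0990 within groups, adjusted 0.132). No r over all 8 libraries is given for Gata4 and Fabp6, because the 2 replicate 4 libraries stood apart from the other 6 in Fabp6.

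The relation of Gata4 and Osr2 held within the treatment groups, with r = -0.82 after subtraction of the group means (exact permutation p = 0.0139 within groups, adjusted 0.0370), as did that of Gata4 and Cdx1 (r = -0.88, exact permutation p = 0.0104 within groups, adjusted 0.0370). By Spearman's rho within groups, Gata4 passed with Onecut2 (0.81), Pdx1 (0.88), Osr2 (-0.86), Cdx1 (-0.88) and Fabp6 (-0.81). The exact permutation adjusted p was 0.0472 for each, and Fabp6 had few counts outside replicate 4. Without the 2 libraries farthest from the median of Gata4, r was -0.81 for Osr2 (exact permutation p = 0.0361, adjusted 0.144), -0.72 for Cdx1 (exact permutation p = 0.129, adjusted 0.311), 0.70 for Onecut2 and 0.53 for Pdx1. None of these passed the threshold. It was then 0.59 for Gata6 and -0.42 for Cdx2, and 0.40 for Cdx1 and Cdx2 without the 2 libraries farthest from the median of Cdx1. By Pearson's r, leaving out a library other than water replicate 4 left 0 pairs past the threshold, although r of Gata4 and Osr2 kept between -0.85 and -0.76 in all 8 such fits. Without water replicate 4, Gata4 passed with Pdx1, Osr2, Cdx1 and Fabp6, where zinc replicate 4 alone was then high in Fabp6. By Spearman's rho, Gata4 and Osr2 passed without water replicate 2 and without zinc replicate 1. Gata4 and Cdx1 passed without water replicate 2, and Gata4 and Fabp6 without zinc replicate 1. For each of these rho values the exact permutation adjusted p was 0.0492.

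Scaling decided much of this. With library totals as the only scaling, r of Gata4 and Osr2 was -0.19 (exact permutation p = 0.647, adjusted 0.676), that of Gata4 and Cdx1 was -0.18 (exact permutation p = 0.676, adjusted 0.676), and 0 pairs passed. Onecut2 and Pdx1 still ran with Gata4, at r = 0.86 (exact permutation p = 0.00866, adjusted 0.0693) and 0.64 (exact permutation p = 0.0921, adjusted 0.245). Ratios within a library avoid the choice of scaling. Per kilobase, Gata4 exceeded Osr2 by 1.88 times in water replicate 4 and 1.44 times in zinc replicate 4, and by 2.75 to 6.25 times in the other 6 libraries. The ratio of Onecut2 to Osr2 was likewise lowest in these 2 libraries, at 0.178 and 0.156, and highest in replicate 3 of each group, at 0.798 and 0.686. The ratio of Pdx1 to Osr2 was lowest in replicate 4 of the zinc group (0.162) but not of the water group, at 0.489 against 0.418 in water replicate 2.

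**Figure D4:**
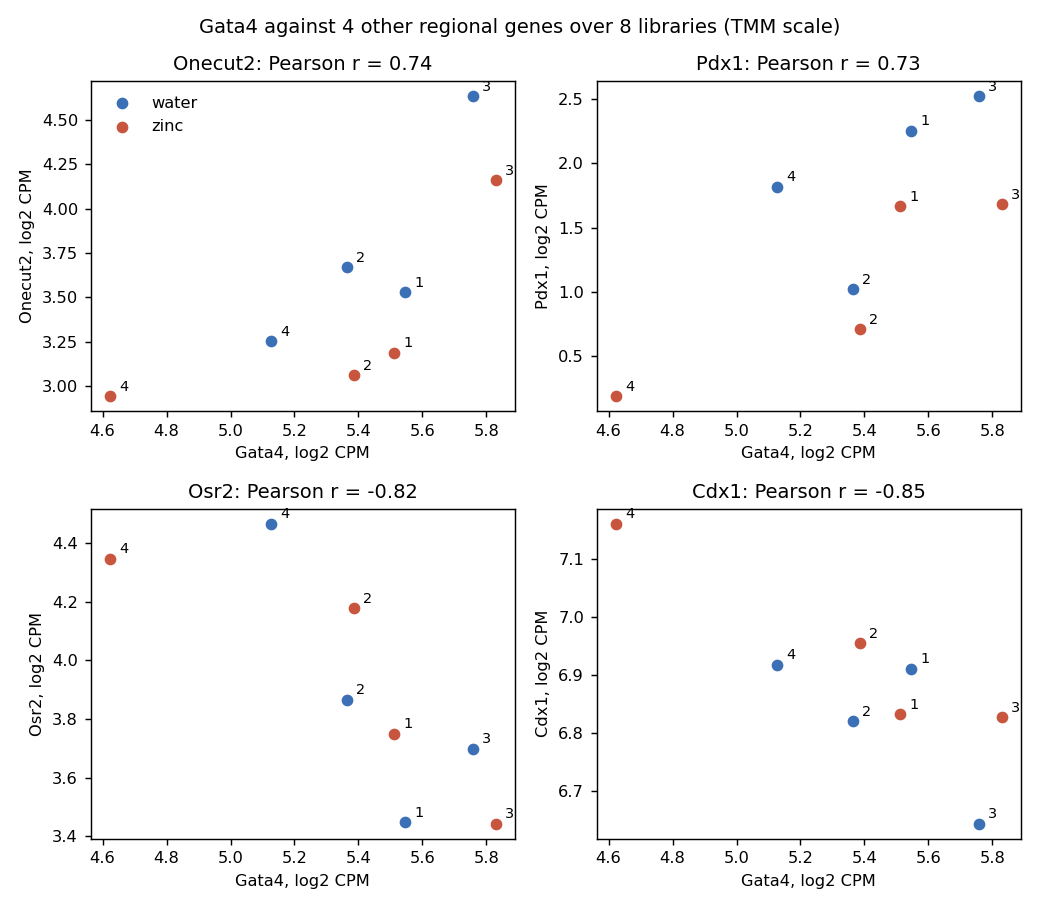
Log2 CPM (TMM scale) of Onecut2, Pdx1, Osr2 and Cdx1 against Gata4, with 1 point per library, coloured by group and labelled with the replicate number. Onecut2 and Pdx1 rise with Gata4 (r = 0.74 and 0.73), and Osr2 and Cdx1 fall with it (r = -0.82 and -0.85). With library totals as the only scaling, r was -0.19 for Osr2 and -0.18 for Cdx1.

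Other positional genes were read beside the set. Hox genes, which are transcribed in clusters in an order that follows the body axis, were measured as 39 genes, of which 6 were tested, all of them Hoxb genes. The most abundant, Hoxb9 (ENSMUSG00000020875), stood at 3.88, 3.14, 6.60 and 10.7 CPM in water replicates 1 to 4 and at 1.78, 2.41, 3.24 and 15.9 CPM in zinc replicates 1 to 4. Replicate 4 was the highest in each group, as it was for Osr2 and Fabp6. Hoxb6, Hoxb7 and Hoxb8, named after their values were seen, had the same highest libraries, at 3.22, 5.43 and 10.2 CPM in zinc replicate 4 and 2.48, 2.60 and 5.50 CPM in water replicate 4. In the other 6 libraries they ran up to 1.38, 1.90 and 3.93 CPM.

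Over the 8 libraries the Pearson r of Hoxb6, Hoxb7, Hoxb8 and Hoxb9 with Gata4 ran from -0.75 to -0.62, while 7.32% of all genes tested had an r of -0.6 or lower. The median r of the 6 tested Hoxb genes was -0.64, with 5 negative. Hoxb2, named after its value was seen, was the exception at 0.58. The median of all genes tested was -0.01, with 6069 of 11987 negative. With library totals as the only scaling the median of the 6 was -0.28, with 5 negative. That of all genes was then 0.14, with 3857 of 11987 negative. On that scaling Hoxb6 and Hoxb7 stood at -0.47 and -0.40, and Hoxb8 and Hoxb9 at -0.17 and -0.11. These values describe 8 libraries that share 1 scaling. The ratio of Hoxb9 to Gata4 per kilobase was 0.643 in water replicate 4 and 1.37 in zinc replicate 4, and 0.0822 to 0.257 in the other 6. None of the 6 passed the zinc test, and their log2 fold changes ran from -0.38 to 0.35.

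Of 14 listed genes of proximal absorption, 10 were tested and none passed the zinc test, with log2 fold changes from -0.52 to 1.51 (smallest edgeR adjusted p = 0.633) and a median of 0.20. The most abundant was Cybrd1, the duodenal ferric reductase, at 74.3, 70.3, 74.6 and 52.55 CPM in water replicates 1 to 4 and 79.3, 66.2, 63.4 and 48.75 CPM in zinc replicates 1 to 4. Cybrd1 was lowest in replicate 4 of each group, while with library totals as the only scaling water replicate 1 was the lowest of the water group. Its r with Gata4 was 0.77, and Bco1 and Apoa4, named after their values were seen, had 0.76 and 0.73. Thus 3 of 10 had an r of 0.6 or higher, as did 6.64% of all genes tested. A positive r was found for 6 of 10 (median r 0.15), against 5918 of 11987 genes. The 4 negative ones, also named after their values were seen, were Apoa1 (-0.32), Slc5a1 (-0.25), Npc1l1 (-0.23) and Slc40a1 (-0.17). With library totals as the only scaling all 10 were positive, against 8130 of 11987 genes. Bco1 encodes the enzyme that cleaves β-carotene and Apoa4 an apolipoprotein of chylomicrons.

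Of 7 listed genes of distal bile acid and vitamin B12 handling, 3 were tested and none passed the zinc test, with log2 fold changes from -0.42 to 0.14 and a median of -0.39. Fgf15, an ileal hormone that represses bile acid synthesis in the liver, had 0 counts in all 8 libraries. The most abundant was Nr1h4, the bile acid receptor FXR, at 5.004 to 10.8 CPM in the water libraries and 4.58 to 6.30 CPM in the zinc libraries. Nr1h4 was highest in water replicate 3, and its r with Gata4 was 0.41. Slc51a and Amn, the other tested genes of the list, named after their values were seen, were highest in replicate 4 of each group like Fabp6, and had an r of -0.38 and -0.49. The median r of the 3 was -0.38, with 2 negative, and with library totals as the only scaling it was 0.25, with all 3 positive. The replicate 4 maximum was not limited to distal genes. Slc40a1 and Apoa1 of the proximal list, also named after their values were seen, were highest in replicate 4 of each group. They stood at 2.06 and 2.18 CPM in water replicate 4 and at 1.32 and 1.05 CPM in zinc replicate 4. All 15 listed transcription factors of the intestinal epithelium were tested, none passed, and their log2 fold changes ran from -0.32 to 0.28 with a median of -0.08. The most abundant, Hnf4a, a nuclear receptor of the intestinal epithelium, ran from 247 to 305 CPM in the water libraries and from 268.5 to 302.5 CPM in the zinc libraries. Of the 15, 3 had an r with Gata4 of -0.6 or lower and 3 of 0.6 or higher (median r -0.31). Named after their values were seen, these were Foxa1 (-0.83), Tcf7l2 (-0.76) and Isx (-0.75), and Sox9 (0.73), Gata5 (0.64) and Foxa3 (0.63). A low r with Gata4 was thus not limited to the listed positional genes. Scaled by library totals alone, the median r of the 15 was 0.17, with 3 negative. Foxa1, Tcf7l2 and Isx then stood at -0.32, -0.03 and -0.22.

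**Figure D5:**
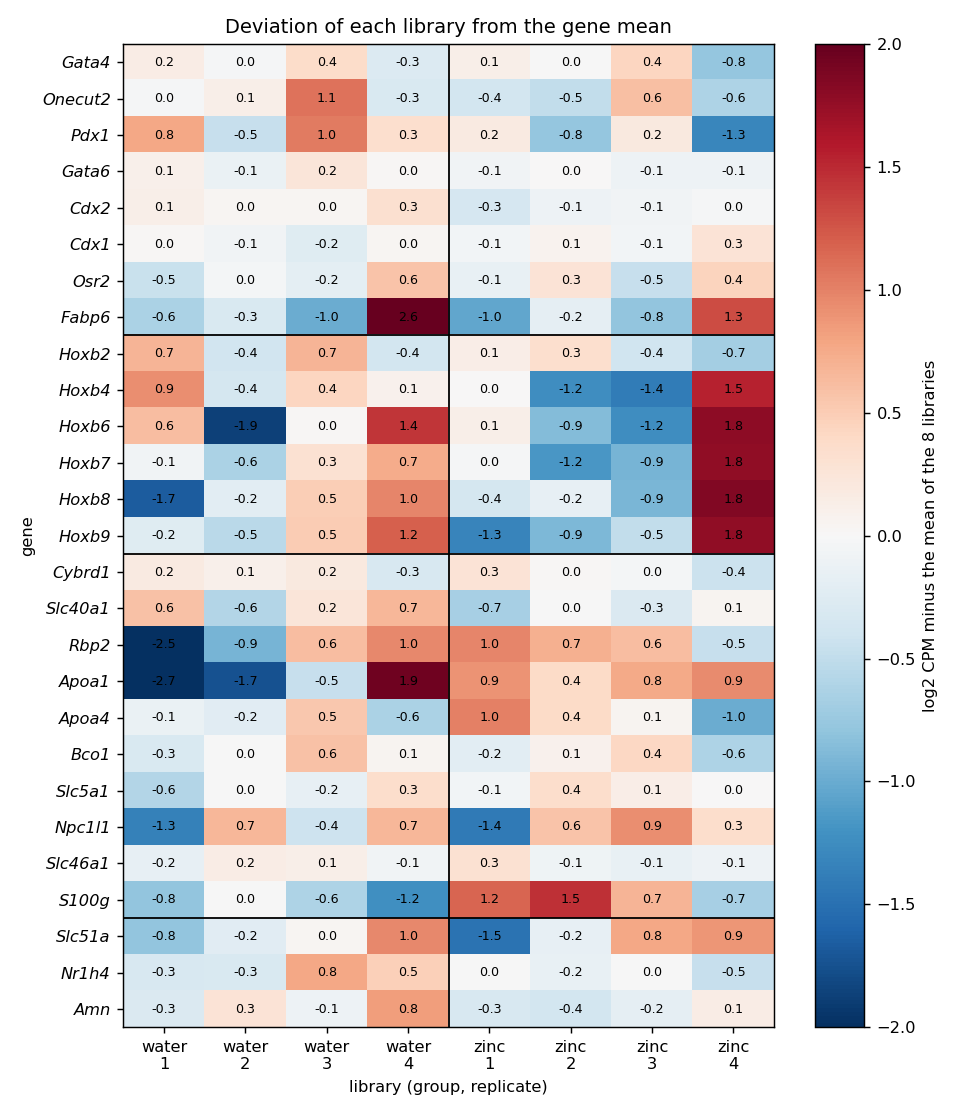
Log2 CPM of each library minus the mean of the 8 libraries, as colour and number, for 8 of the 9 genes (Slc10a2 is left out for its low counts) and, below the lines, for every tested Hoxb gene, proximal gene and distal gene. The colour scale ends at -2 and 2. On this TMM scale, in both replicate 4 columns Gata4 and Onecut2 are below their means, and Osr2, Fabp6 and Hoxb6 to Hoxb9 are above theirs.

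The genes most like a member over the 8 libraries were named by the highest Pearson r of log2 CPM among the tested genes with a mean of at least 5 CPM, of which there were 8665. For Gata4 these were Akt2 (r = 0.98), Slc1a3 (0.97) and Secisbp2l (0.95). For Cdx2 they were Zyx, H2-Q4 and Mreg, each with an r of 0.94. For Fabp6 they were Rpl14 (0.97), Krt8 (0.97) and Atp5if1 (0.96), values that rest on the 2 libraries with Fabp6 counts above 6. With so many genes and 8 libraries, high values of r are to be found for any gene.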

How the data were processed

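RNA of sorted Paneth cells was made into libraries with a stranded mRNA kit. The authors deposited raw read counts per Ensembl gene ID, 1 column per library and not normalized. The submitters' processing notes name FastQC 0.12.0, STAR 2.7.0a, DESeq2 and the build mm39 (GRCm39), while the counting program, its strand setting and the handling of multi-mapped reads are not stated in these sources. IDs were matched to GENCODE M39 on GRCm39 (54749 of 55414). Zinc was compared with water in edgeR 4.0.16 (R 4.3.3), with the default filter (minimum count 10), TMM factors, robust quasi-likelihood fits, treatment only, and Benjamini-Hochberg adjustment over 11988 genes (threshold 0.05). The SE was the size of the log2 change divided by the root of the F statistic. The fit was tested on simulated data. DESeq2 1.42.0, limma-voom (limma 3.58.1), other scalings and filters, a replicate block and leaving out each library were alternatives. Relations used log2 CPM (prior count 2) for pairs with mean counts of at least 10, in Python 3.11.15. Libraries of a group differed by more than sampling noise (chi-square per degree of freedom 31.4 or more), and each counted as 1 replicate. No molecular identifiers are named, so intervals cover counting error only.

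The members and lists were chosen with earlier results of these data known. The text names the 9 members, of every other list the most abundant gene and any gene past the threshold, and the 3 genes most like Gata4, Cdx2 and Fabp6. Others are said to be named after their values were seen. A gene that this rule names in the list of neighbouring organs is not reported here.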

Additional observations from a re-analysis of the deposited data

Results flagged for a closer look

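The library farthest from its group was looked for with Dixon's 95% critical value in the library totals, the regional genes and the shares of the marker lists, over 38 groups of 4 with any spread, and 6 of them had a library past it. Chance alone singles out about 1 in 20 for independent groups of normal values, a rate that does not hold for counts near 0. Fabp6 stood at 2.56 CPM in water replicate 4, while the other water libraries ran from 0.127 to 0.258 CPM, a gap of 0.946 of the range (0.957 with library totals as the only scaling). Onecut2 stood at 17.8 CPM in zinc replicate 3, while the other zinc libraries ran from 7.60 to 9.03 CPM, a gap of 0.860 of the range, which was 0.801 and no longer past the test with library totals. The goblet cell markers took 0.864% of counts in water replicate 3, against 1.04 to 1.07% in the other water libraries. The leukocyte markers took 0.000157% in water replicate 4, against at most 2.70e-05% in the others. The pancreas markers took 9.55e-06% and the mesenchyme markers 2.39e-05% in water replicate 1, against 0 counts in the other 3 water libraries, and these shares rest on single genes, Cpa1 and Col3a1. With 0 in the others the gap equals the range whatever the value.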

How the results depend on the processing

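In each of the 16 alternatives, 0 regional genes passed the zinc test. Over all genes, those higher and lower with zinc were 3 and 7, and became 8 and 26 with DESeq2, 11 and 55 without the low-count filter, 6 and 26 with the replicate block, and 0 to 5 and 1 to 12 when a library was left out. Libraries of the same number deviated from their group means with r = 0.23, 0.00, 0.13 and 0.26 for numbers 1 to 4 (5.51e-05 for number 2). The highest r of a water replicate with a zinc library of another number was -0.02, 0.00, 0.04 and -0.01. The numbers were not taken as pairs because number 2 showed no such relation. Whether the others share an origin was not tested. The replicate block changed no call on a regional gene. With it the log2 fold change was -0.44 (SE 0.14) for Onecut2, -0.87 (SE 0.29) for Pdx1 and -0.26 (SE 0.09) for Cdx2. Their edgeR p was 0.00591, 0.0076 and 0.0103 unadjusted, and 0.407, 0.449 and 0.507 adjusted. For Gata4, Gata6, Osr2 and Cdx1 the unadjusted edgeR p was at least 0.17. When a library was left out, the log2 fold change ran from -0.25 to 0.12 for Gata4, from -0.11 to 0.29 for Osr2 and from -0.82 to -0.06 for Onecut2. Of 8 pairs, 2 passed by Pearson's r, against 3 within the treatment groups, of which 1 was Gata4 and Fabp6. With library totals 0 passed, as did 0 without the 2 libraries farthest from the median of the first gene, and 0 to 4 without a library. The 4 include Gata4 and Fabp6, where zinc replicate 4 alone was then high in Fabp6 and rho did not pass (-0.71, exact permutation, adjusted p = 0.176). The r of Gata4 and Cdx2 was 0.19 with library totals, and that of Cdx1 and Cdx2 was 0.80 with library totals, 0.63 within groups, and ran from -0.0733 to 0.15 (-0.02 without water replicate 4) without a library. Gata6 per kilobase was 9.82 with the longest transcript. Without a library, the zinc minus water difference in marker shares, in percentage points, ran from -1.89 to 1.66 (Paneth cell), -0.00374 to 0.00534 (enterocyte), -0.00263 to 0.000242 (enteroendocrine), -0.0015 to 0.00191 (tuft) and -3.04e-05 to 1.89e-05 (leukocyte). The cause of these changes was not tested. Depth limits Slc10a2 and, outside replicate 4, Fabp6.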

Other observations

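Genes of neighbouring organs were listed too, 11 in all, of which 10 were matched to the table and 2 were tested and none passed the zinc test. Sox2, which marks the stomach, had 0 counts in all 8 libraries, while Tff2, another listed stomach gene, had a mean of 2.26 CPM. These stomach genes were named after their values were seen. Car1, a colonic carbonic anhydrase named after its values were seen, had 25, 157 and 45 counts in water replicates 1 to 3 and 0 in the other 5 libraries.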
